A study of Mus musculus with 15 samples.

Results

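Cortical thymic epithelial cells (cTEC), which support the development of T cells in the outer zone of the thymus, were compared gene by gene with epithelial cells of the skin. The comparison used 6 of the 15 libraries of the study, chosen by their labels alone: 3 of primary cTEC and 3 of skin epithelium. All 6 came from untreated wild-type C57BL/6J male mice aged 8 weeks. Each library was made from the pooled cells of 5 mice after fluorescence-activated cell sorting, with the same stranded poly(A) kit (KAPA) on RNA taken with TriZol and RNeasy columns. The series set out to find which mechanisms make epithelia differ in MHC class I, and its other 9 libraries hold medullary thymic, colon and lung epithelium. The sort markers are not given in the sources used here, and the labels do not say whether the pools of a group shared mice. The p-values below therefore rest on the spread between pools, estimated from all 15 libraries together and not from cTEC and skin alone.

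The thymic cortex is where immature thymocytes rearrange their T cell receptor genes and are tested for a weak fit to self peptides on MHC molecules. cTEC make those peptides with an unusual set of proteases: a proteasome subunit found in these cells (Psmb11) for MHC class I, and cathepsin L (Ctsl) and the thymus-specific serine protease (Prss16) in the endosomal and lysosomal path for MHC class II. They also supply the Notch ligand Dll4, interleukin 7 and chemokines. Skin epithelium renews itself by division of basal cells, which then move outward, build keratin 1 and 10 filaments and many desmosomes, and end as the cornified barrier. Both are squamous-type epithelia that rely on the transcription factor Trp63, and both cTEC and hair follicles use Foxn1.

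The labels were set beside marker lists. These lists were chosen with earlier results of these data known, so the counts describe the libraries and do not test the labels. All 15 cortical markers were higher in cTEC and 14 of 15 skin keratinocyte markers were lower, by edgeR's quasi-likelihood test at an adjusted p under 0.05 over all genes, the rule used throughout. Prss16 was at 1685, 1313 and 4884 CPM in the cTEC libraries and 4.33, 1.5 and 1.27 CPM in the skin libraries. Krt10 ran the other way, at 25.5, 34.6 and 18.8 CPM in the cTEC libraries and 11619, 15914 and 10631 CPM in the skin libraries. For both genes the groups were far apart and each library matched its label. Of 15 medullary thymic markers 12 were also higher in cTEC than in skin and 2 lower (median 5.43), so marker levels against skin do not separate the 2 kinds of thymic epithelium. Aire, the regulator of medullary cells, was at 39.4, 26.4 and 67.1 CPM in the cTEC libraries and 0, 1.86 and 0.425 CPM in the skin libraries (log2 fold change 5.89 ± 0.67, where ± is the standard error), and averaged 481 ± 207 CPM (mean ± SD, n = 3) in the medullary libraries, above each cTEC library. Aire was at 7.42 without skin replicate 2.

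The 3 cTEC libraries held 14329113 to 17864005 reads assigned to genes and the 3 skin libraries 12946533 to 15292850. Single libraries differed from their group. cTEC replicate 3 was the highest of the 3 cTEC libraries for 14 of 15 cortical markers, whose summed level there was 1.89 times the mean of the other 2, and the lowest for 14 of 15 skin keratinocyte markers, 26 of 28 interferon-stimulated genes and all 17 immediate early genes. Skin replicate 1 had 14.8% of its gene reads on Gm42418, a gene that overlaps ribosomal RNA, against 4.89% and 2.18% in the other skin libraries, and 10.6% of its gene reads fell on the opposite strand against 5.08% to 7.16% in the other 5 libraries. Skin replicate 3 was the highest skin library for all 44 replication and mitosis genes tested, and had 2.81 times the fibroblast marker total and 0.617 times the keratin total of the other 2. Log2 fold changes that moved by over 1.5 times when 1 library was left out are given again without it. Genes named only in the closing paragraphs on gene clusters were not checked in this way.

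Markers of other cell types were summed in each library, in sense-strand counts scaled to library size (CPM). Of 20 thymocyte and T cell markers tested, 16 were higher in cTEC, and 5 had no read in skin. Cd8a, a coreceptor of thymocytes, was at 20.8, 15.8 and 15.6 CPM in the cTEC libraries and 0, 0.0884 and 0 CPM in the skin libraries. Thy1 and Bcl11b, which skin cells also express, were lower in cTEC, so the list total was no higher there, at 197 to 279 CPM in cTEC and 231 to 378 CPM in skin. Skin held more of the fibroblast list, with 10 of 12 markers lower in cTEC and totals of 1106, 1055 and 609 CPM in cTEC and 4471, 1548 and 8463 CPM in skin, and more of the endothelial list, with 9 of 12 lower, although its total was 360.2 to 582 CPM in cTEC and 184 to 460.2 CPM in skin because Tagln, Acta2 and Rgs5 were read in cTEC. All 5 erythroid markers were lower in cTEC, with totals of 0.336 to 1.52 CPM in cTEC and 63.5 to 123 CPM in skin, and the globin copies among them are too alike to separate. In bulk RNA, fewer cells of a type and less RNA per cell cannot be told apart. These levels are given again beside the gene groups they move with.

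**Figure D1:**
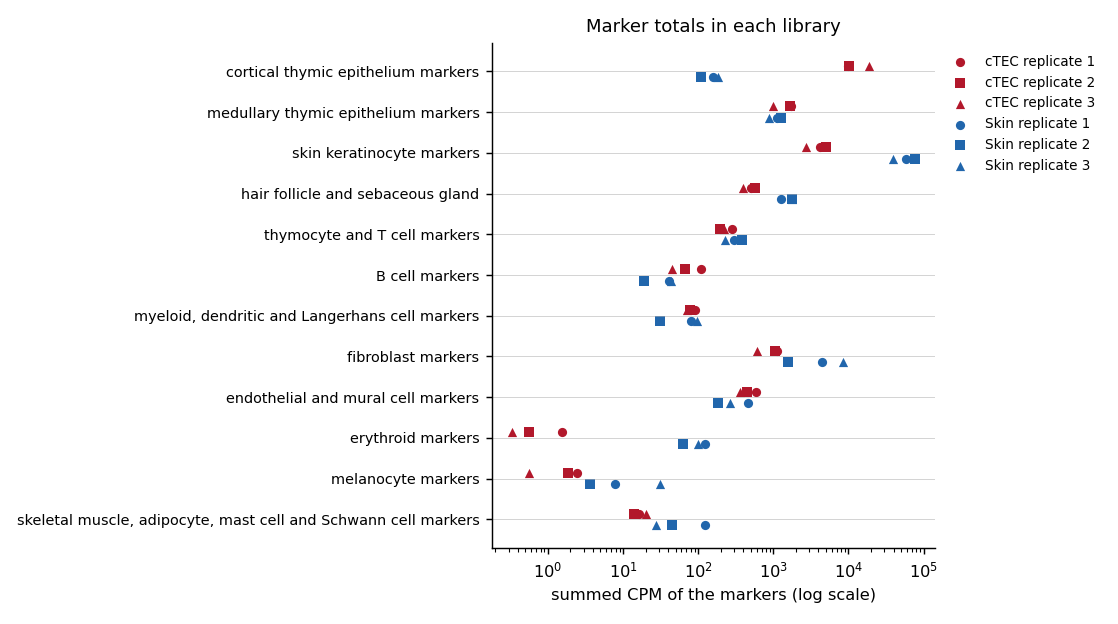
Summed CPM (horizontal axis, log scale) of each marker list (vertical axis) in the 6 libraries, with 1 point per library, cTEC in red and skin in blue. Cortical markers sat at 9985 to 18993 CPM in cTEC, while thymocyte markers stayed at 197 to 279 CPM there and fibroblast markers reached 8463 CPM in skin replicate 3.

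Across the genome the 2 epithelia were far apart. Of 19107 genes tested, 10750 differed, which is 56.3%. Higher in cTEC were 6184 genes (32.4%) and lower 4566 (23.9%), and the libraries of the groups did not overlap for 55.3% of all genes. Past a 2-fold change by the same model, 5636 genes (29.5%) were called. The shared spread includes colon and lung, which are not among the 9 libraries of the same kit. Replicates correlated less in skin (r = 0.92 to 0.947) than in colon (r = 0.99 to 0.991), so the shared spread may understate that of skin. The 6 libraries fitted alone gave 7197 calls among 15609 genes tested. Large differences were more often upward in the model of all 15 libraries: 2433 called genes were over 10 times higher in cTEC and 962 over 10 times lower. Fewer genes had at least 5 reads in the skin libraries (15135 to 16282) than in the cTEC libraries (17764 to 18701), and the part of read depth in this lean was not tested. With the 6 libraries alone, 53.1% of the calls were higher in cTEC. Over the 19107 genes the median was 0.19 on the log2 scale, and the counts of each list stand against the shares of 32.4% higher and 23.9% lower.

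**Figure D2:**
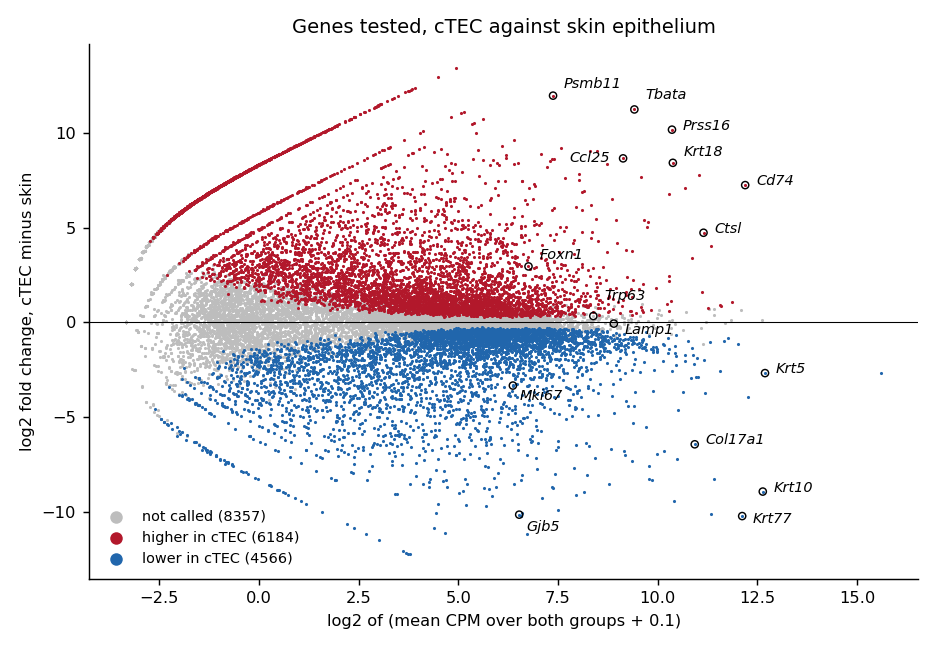
Log2 fold change of cTEC over skin (vertical axis) against the log2 of mean CPM over both groups (horizontal axis), 1 point per gene for the 19107 tested, with called genes coloured by direction and some genes of the text circled. The curved edges are genes with no or few reads in 1 group, and Prss16 and Tbata lie near the top while Krt77 and Krt10 lie near the bottom.

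The 12 largest increases among well-read genes were led by Tbata, a thymus protein also known as Spatial (chromosome 10, 61171954 to 61188841, GRCm38), at 935, 926 and 2240 CPM in the cTEC libraries and 0.377, 1.41 and 0.0607 CPM in the skin libraries (log2 fold change 11.23 ± 0.67, adjusted p = 1.31e-08, where ± is the standard error). Next came Prss16 (chromosome 13, 22002173 to 22009742; 10.16 ± 0.69), Mgat3, which adds the bisecting sugar to N-glycans (9.18 ± 0.63), and Pax1, a pharyngeal pouch transcription factor (9.06 ± 0.57). Wfikkn2, a secreted inhibitor of growth factors of the myostatin family, was at 649, 673 and 558 CPM in the cTEC libraries and 1.13, 2.65 and 0.121 CPM in the skin libraries. The others were the potassium channel partner Dpp6 (8.87 ± 0.38), the interferon-induced GTPase Tgtp2 (8.85 ± 0.60), the chemokine Ccl25 (8.65 ± 0.52), the MHC class II master regulator Ciita (8.64 ± 0.59), the small GTPase Diras2 (8.62 ± 0.34), the LIM protein gene Crip3 (8.61 ± 0.71) and the sodium channel Scn1a (8.57 ± 0.54). All 12 had non-overlapping groups, which the rule for naming them required. Prss16 was at 9.39, Ccl25 at 8.01 and Crip3 at 7.93 without cTEC replicate 3, and Tbata was at 12.79 and Crip3 at 9.73 without skin replicate 2. Tbata was at 10.57 and Pax1 at 10.49 without skin replicate 3, and Prss16 was at 10.89 without skin replicate 1. Scn1a was at 10.92 without skin replicate 3, where at most 3 reads were left in skin, so this size depends on the prior count.

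The 12 largest decreases were mostly genes of epidermal differentiation. Krt77, a keratin of the suprabasal epidermis (chromosome 15, 101858731 to 101869705), was at 11.1, 8.47 and 2.86 CPM in the cTEC libraries and 9475, 10776 and 6461 CPM in the skin libraries (log2 fold change -10.21 ± 0.64, adjusted p = 7.98e-08). Krt1 (-10.08 ± 0.60), Krt10 (-8.92 ± 0.42), the galectin Lgals7 (-9.44 ± 0.48), the kallikrein protease Klk5 (-8.75 ± 0.79) and the metallothionein Mt4 of squamous epithelia (-8.77 ± 0.59) belong with it. Lgr6, a receptor of skin stem cells, changed by -9.17 ± 0.95, and the chitinase Chit1 by -9.11 ± 0.51. Them5 (-10.05 ± 0.61), Ndufa4l2 (-9.27 ± 0.52) and Fam25c (-8.93 ± 0.63) completed the list with Pi16 (-9.91 ± 0.84). Pi16 was at 303, 102 and 676 CPM in the skin libraries, the same order as their fibroblast totals, and the part of fibroblasts in it was not tested. Krt1 was at -10.68 and Them5 at -10.79 without cTEC replicate 2, and Pi16 was at -9.04 without skin replicate 3. Klk5 was at -11.51 without cTEC replicate 1, where at most 3 reads were left in cTEC, so this size depends on the prior count.

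Lysosomal proteases divided by gene. Of 18 tested, 6 were higher (33.3%, against 32.4% of all genes) and 10 lower (55.6%, against 23.9%) in cTEC. The median log2 fold change was -0.61, so the group as a whole did not shift upward. Ctsl, which frees peptides for MHC class II in cTEC, was at 3911, 3699 and 5543 CPM in the cTEC libraries and 167, 134 and 196 CPM in the skin libraries (chromosome 13, 64359337 to 64370890; log2 fold change 4.73 ± 0.23, adjusted p = 1.83e-09). Prss16, given above, was 1144 times higher. These 2 genes carried the sum of the list, which was 6450, 5830 and 11146 CPM in cTEC and 1545, 1580 and 1914 CPM in skin.

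Per transcript length the order of the proteases turned over between the tissues. Ctsl averaged 3702 ± 1252 TPM in cTEC and 97.2 ± 34.5 TPM in skin (TPM are length-scaled; mean ± SD, n = 3), and Prss16 2389 ± 2035 TPM in cTEC and 1.04 ± 0.629 TPM in skin. Ctsd, the general aspartic protease of lysosomes, averaged 211 ± 8.03 TPM in cTEC and 271 ± 61.6 TPM in skin. Ctsb averaged 79.1 ± 7.82 TPM in cTEC and 150.2 ± 61.9 TPM in skin. In skin Ctsd stood above Ctsb and Ctsl, while in cTEC the means of Ctsl and Prss16 stood above that of Ctsd, with a spread for Prss16 nearly as wide as its mean.

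The broad-acting cathepsins were mostly lower. Ctsb was at 251, 245 and 191 CPM in the cTEC libraries and 479, 554 and 735 CPM in the skin libraries, Ctsd changed by -0.95 ± 0.13, the aminopeptidase cathepsin Ctsh by -2.14 ± 0.25, and the tripeptidyl peptidase Tpp1 by -0.71 ± 0.13. Dpp7, a dipeptidase of vesicles, showed the largest decrease of those well read (2.95 ± 1.21 CPM against 23 ± 3.49 CPM; log2 fold change -2.95 ± 0.30, adjusted p = 1.45e-06). Higher were Ctso (1.62 ± 0.20), Ctss, which trims the MHC class II invariant chain in dendritic cells and other cells (17.3 ± 6.31 CPM against 2.93 ± 1.06 CPM; log2 fold change 2.57 ± 0.41, adjusted p = 0.000122), Napsa (1.69 ± 0.61), and Ctse, which had no read in skin and was at least 33.4 times higher with skin set to a floor of 3 reads over the group. Lgmn, the asparagine endopeptidase, was called lower at -0.62 ± 0.22. Ctss is strong in myeloid cells, whose markers summed to 71.8 to 89.8 CPM in cTEC and 31.4 to 96.2 CPM in skin, and their part in it was not tested. Napsa was at 2.52 without skin replicate 3. Napsa lost its call without cTEC replicate 1, skin replicate 1 or skin replicate 2 (adjusted p = 0.0707 to 0.108). Lgmn lost its call without cTEC replicate 2, cTEC replicate 3 or skin replicate 3 (adjusted p = 0.0635 to 0.312).

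**Figure D3:**
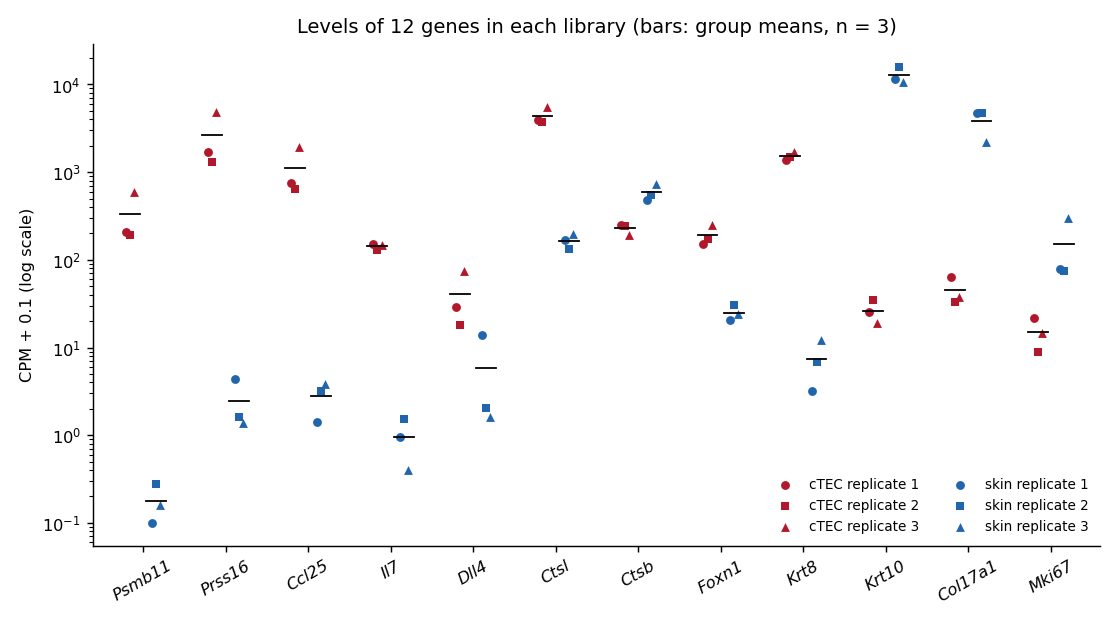
CPM + 0.1 (vertical axis, log scale) of 12 genes in each library, with cTEC in red, skin in blue, a shape per replicate and bars at the group means (n = 3). The groups are separated for each of the 12 genes, far apart for Psmb11, Prss16 and Krt10 and close for Dll4, where skin replicate 1 lies just under the lowest cTEC library.

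The list of other lysosomal hydrolases leaned upward. Of its 31 genes, 17 were higher and 6 lower (median 0.65). It also holds Npc2 and Psap, which are not enzymes, and the carboxypeptidase gene Scpep1. The cholesterol carrier Npc2 was at 525, 635 and 528 CPM in the cTEC libraries and 134, 142 and 122 CPM in the skin libraries (log2 fold change 2.08 ± 0.17, adjusted p = 1.52e-07), with no overlap between the groups. The glycogen enzyme Gaa (1.60 ± 0.16) and the sphingolipid activator precursor Psap (0.64 ± 0.16) were higher, while the phosphatase Acp5 was much lower (2.0 ± 0.794 CPM against 71 ± 13.5 CPM; log2 fold change -5.13 ± 0.29, adjusted p = 7.68e-09), as was the sulfatase Arsa (-0.98 ± 0.15). Of 19 membrane and regulator genes 7 were higher and 5 lower (median 0.02), with only 1 lower without cTEC replicate 1 or with the 6 libraries fitted alone, 3 without cTEC replicate 3 and 2 without skin replicate 2. Of 22 vacuolar ATPase genes 4 were higher and 7 lower (median 0.02), with 4 lower without cTEC replicate 1, without skin replicate 2 or with the 6 libraries alone. Of 25 autophagy genes 7 were higher and 5 lower (median 0.16). The shares of the autophagy list (28% higher, 20% lower) and of the membrane and regulator list (36.8% and 26.3%) were near those over all genes (32.4% and 23.9%).

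Within those lists single members moved by large amounts. Lamp1, the most used lysosome marker, was at 455, 489 and 460 CPM in the cTEC libraries and 461, 541 and 464 CPM in the skin libraries, with overlapping groups and adjusted p = 0.709, whereas Lamp2 was higher (449 ± 84.9 CPM against 153 ± 31.5 CPM; log2 fold change 1.55 ± 0.18, adjusted p = 5.75e-06). Npc1, which passes cholesterol out of lysosomes, was lower (-1.16 ± 0.11), and Tfeb, the regulator of lysosomal genes, was slightly lower (-0.67 ± 0.22). The proton pump subunits Atp6v0a4 (0.342 ± 0.178 CPM against 34.3 ± 8.67 CPM; -6.60 ± 0.54) and Atp6v1c2 (-4.35 ± 0.47), which belong to forms of the pump used at cell surfaces, were low in all 3 cTEC libraries. The autophagy receptor Optn was higher (29.9 ± 6.33 CPM against 3.75 ± 0.922 CPM; 2.99 ± 0.21), and Map1lc3a (-1.23 ± 0.22) and Becn1 (-0.51 ± 0.10) were lower. Laptm5, a lysosomal gene of blood cells, was higher (52.1 ± 13.4 CPM against 6.44 ± 2.29 CPM; 3.01 ± 0.42) together with the T cell markers above, whose part in it was not tested. Atp6v1c2 was at -5.01 without cTEC replicate 1. Tfeb lost its call without cTEC replicate 1 or skin replicate 2 (adjusted p = 0.0816 to 0.12).

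The catalytic proteasome subunits showed the thymus-specific form. Psmb11 encodes the beta5t subunit, which replaces Psmb5 or its immune counterpart Psmb8 in the proteasome of cTEC. It was at 210.4, 193 and 593 CPM in the cTEC libraries and 0, 0.177 and 0.0607 CPM in the skin libraries, where skin held 3 reads in all, a ratio of 4166 (95% interval 1425 to 20205). The groups did not overlap (edgeR adjusted p = 1.45e-08). Its fitted log2 fold change of 11.95 was 12.94 without skin replicate 2 and 11.26 without cTEC replicate 3, sizes that depend on the prior count at so few skin reads. Psmb11 and Psmb5 lie next to each other on chromosome 14. Psmb5 was at 25.1, 24.4 and 26.9 CPM in the cTEC libraries and 37, 41.9 and 39 CPM in the skin libraries, also without overlap, and was lower in cTEC (log2 fold change -0.63 ± 0.15, adjusted p = 0.00275); reads of its processed copies elsewhere in the genome cannot be fully separated from it.

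The immunoproteasome subunits were higher too. Psmb10 was at 196, 228 and 324 CPM in the cTEC libraries and 25.8, 15.1 and 18 CPM in the skin libraries (log2 fold change 3.67 ± 0.24, adjusted p = 3.15e-08), Psmb9 changed by 3.02 ± 0.23 and Psmb8 by 1.21 ± 0.27. The constitutive subunit Psmb7 was lower (-0.65 ± 0.12), and Psmb6 did not pass the test (log2 fold change -0.28 ± 0.14, adjusted p = 0.0998). In all, 4 of 7 were higher and 2 lower. Per length, Psmb11 averaged 139.5 ± 109.5 TPM in cTEC and 0.0233 ± 0.0252 TPM in skin, and Psmb5 averaged 151 ± 18.7 TPM in cTEC and 172 ± 29.1 TPM in skin, so the means of both in cTEC were within their spread of each other.

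The bases just upstream of 4 of these genes are shown because Foxn1, the regulator of thymic epithelium, has been reported to bind a core of GACGC, and because Psmb11 and Psmb5 are neighbours with opposite patterns. They come from RefSeq on GRCm38.p6, cover the 250 bases before the annotated start, read 5′ to 3′ on the strand of the gene, and have GACGC or its reverse complement GCGTC in capitals. The windows are chr14:54625060-54625309, plus strand, for Psmb11; chr14:54617996-54618245, minus strand, for Psmb5; chr8:4324960-4325209, plus strand, for the first of the annotated starts of Ccl25; and chr11:99389365-99389614, minus strand, for Krt10.
Psmb11 upstream window: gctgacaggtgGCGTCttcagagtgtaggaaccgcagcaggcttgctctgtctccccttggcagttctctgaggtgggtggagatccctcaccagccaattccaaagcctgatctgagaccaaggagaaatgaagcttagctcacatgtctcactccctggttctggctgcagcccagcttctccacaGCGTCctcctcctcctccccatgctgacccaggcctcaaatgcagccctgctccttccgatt
Psmb5 upstream window: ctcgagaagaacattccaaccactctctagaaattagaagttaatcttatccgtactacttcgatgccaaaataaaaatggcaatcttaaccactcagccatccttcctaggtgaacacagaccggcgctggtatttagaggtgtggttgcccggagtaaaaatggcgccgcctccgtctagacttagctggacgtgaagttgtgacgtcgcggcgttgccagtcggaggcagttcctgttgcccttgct
Ccl25 upstream window: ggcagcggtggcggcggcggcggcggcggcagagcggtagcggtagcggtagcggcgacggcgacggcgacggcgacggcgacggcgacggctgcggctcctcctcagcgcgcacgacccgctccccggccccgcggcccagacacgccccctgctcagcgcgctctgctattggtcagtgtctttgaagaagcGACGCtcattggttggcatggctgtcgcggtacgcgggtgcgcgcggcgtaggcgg
Krt10 upstream window: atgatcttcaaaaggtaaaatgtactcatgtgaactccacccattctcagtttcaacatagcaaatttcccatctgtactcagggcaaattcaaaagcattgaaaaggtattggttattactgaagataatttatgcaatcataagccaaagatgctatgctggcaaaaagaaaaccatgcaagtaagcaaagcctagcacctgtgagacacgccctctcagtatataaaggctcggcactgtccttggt
The Psmb11 window held 2 matches, the Ccl25 window 1, and those of Psmb5 and Krt10 none. Among other windows looked at, that of Pax1 held 1, while the second window of Ccl25 and those of Dll4, Ctsl, Ly75, Tbata and Foxn1, all higher in cTEC, held none. Over all windows of this length, 7423 of 32851 (22.6%) held at least 1 match on either strand. For list genes with a window, only the first window of each gene was scored. A match was present there for 5 of 12 cortical markers, 5 of 10 thymic regulators, 3 of 13 lysosomal proteases and 0 of 10 skin keratinocyte markers. The share over all windows counts every window of a gene, so it is not a like measure for these counts. The cortical and regulator lists also share Foxn1, Pax1 and Tbata. The median GC content was 52.4% over all windows and 59.6% for the cortical markers, so base composition differed as well. A match describes the letters in the window and not a bound site, and its lack says nothing of the factor.

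Of 34 extracellular and membrane proteases 10 were higher and 14 lower, with a median of -0.73 that became 0.10 without skin replicate 3, and 6 were higher with the 6 libraries fitted alone. Those lower were led by the kallikreins that shed the outer epidermis: Klk11 was at 0.714, 0.668 and 0.784 CPM in the cTEC libraries and 214, 264 and 97.5 CPM in the skin libraries (log2 fold change -8.04 ± 0.42, adjusted p = 3.67e-09), Klk8 changed by -5.34 ± 0.37 and Klk10 by -8.27 ± 0.79. Casp14, a caspase of cornifying cells, changed by -7.20 ± 0.41. Enpep, the Ly51 antigen often used to sort cTEC, was higher (144 ± 66.7 CPM against 4.61 ± 2.31 CPM; 4.97 ± 0.43), as were the gelatinase Mmp9 (140 ± 23.3 CPM against 4.59 ± 3.27 CPM; log2 fold change 4.89 ± 0.45, adjusted p = 6.24e-07), the hepsin gene Hpn (3.40 ± 0.33) and Mme (2.31 ± 0.56). St14, the matriptase gene, was called lower (-0.66 ± 0.20), and Prss8, its partner protease, was slightly higher (0.52 ± 0.18). Mmp9 was at 5.62 and Mme at 3.28 without skin replicate 3. Klk10 was at -12.73 without cTEC replicate 1, where at most 3 reads were left in cTEC, so this size depends on the prior count. St14 lost its call without cTEC replicate 3 or skin replicate 3 (adjusted p = 0.0617 to 0.0892). Prss8 lost its call without cTEC replicate 1, cTEC replicate 2, skin replicate 1 or skin replicate 2 (adjusted p = 0.0695 to 0.0893).

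Of 24 protease inhibitors, 9 were higher and 11 lower, with a median of -1.04 that became -0.17 without skin replicate 3. Serpinb2, an inhibitor abundant in keratinocytes, was at 35.3, 16.8 and 10.8 CPM in the cTEC libraries and 2103, 2745 and 1993 CPM in the skin libraries (log2 fold change -6.76 ± 0.64, adjusted p = 8.69e-07). Cst6 (-4.29 ± 0.43), Stfa3 (-5.97 ± 0.59, a member of a family of near copies), Serpinb5 (-3.71 ± 0.64) and Spink5, which restrains the epidermal kallikreins (-3.47 ± 0.49), were lower with it. Higher were Serpinb6b (47 ± 12.2 CPM against 0.566 ± 0.748 CPM; 6.51 ± 0.54), Wfdc18 (5.55 ± 0.49) and Serpina3g (3.43 ± 0.49). Cst3, a general cathepsin inhibitor, overlapped between groups (log2 fold change -0.22 ± 0.24, adjusted p = 0.46). Spink5 was at -4.08 without cTEC replicate 1, and Serpinb6b was at 5.79 without skin replicate 3. Serpina3g was at 4.19 without skin replicate 2. Serpinb6b was at 8.65 without skin replicate 2, where at most 3 reads were left in skin, so this size depends on the prior count.

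Among signals to T cell precursors, interleukin 7, the growth factor of thymocytes, stood out. Il7 was at 153, 129 and 148 CPM in the cTEC libraries and 0.847, 1.41 and 0.303 CPM in the skin libraries (log2 fold change 7.47 ± 0.35, adjusted p = 1.44e-09), and its 3 cTEC values lay close together. Dll4, the Notch ligand that commits progenitors to the T lineage, was at 29.1, 18 and 74.3 CPM in the cTEC libraries and 13.8, 1.94 and 1.52 CPM in the skin libraries (log2 fold change 2.84 ± 0.71, adjusted p = 0.00371), with groups that did not overlap but came close in skin replicate 1. Dll1 was also higher (174 ± 20.9 CPM against 73 ± 22.7 CPM; 1.25 ± 0.27), while Jag1 (-0.15 ± 0.28) and Jag2 (0.77 ± 0.33) did not pass the test. Il7 was at 8.08 without skin replicate 2, and Dll4 was at 4.55 without skin replicate 1. Dll4 was at 2.10 without cTEC replicate 3.

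Of the 21 ligands, cytokines and growth factors tested, 9 were higher and 5 lower (median 0.77). Kitl, the stem cell factor (44.6 ± 9.48 CPM against 12.3 ± 4.78 CPM; 1.85 ± 0.24), Flt3l (1.99 ± 0.33), Il15 (1.50 ± 0.26) and its presenting receptor Il15ra (1.03 ± 0.23) were higher. Lower were Bmp4 (5.45 ± 1.06 CPM against 45.7 ± 15.6 CPM; -3.07 ± 0.29), Il6 (0.615 ± 0.533 CPM against 40.8 ± 17 CPM; -6.02 ± 0.70), Tslp, a cytokine of keratinocytes (-4.32 ± 0.70), Il1a (-3.96 ± 0.89) and Fgf7 (-4.74 ± 0.93). Fgf7 is a product of fibroblasts, and its skin values of 5.46, 0.707 and 6.92 CPM followed the fibroblast totals in order, a link that was not tested. Il6 was at -5.43 and Tslp at -3.72 without cTEC replicate 3. Il1a was at -5.57 without cTEC replicate 1 and Fgf7 was at -5.74 without cTEC replicate 2, where at most 3 reads were left in cTEC, so these sizes depend on the prior count.

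Chemokines that draw progenitors into the thymus were among the largest differences. Ccl25 was at 760.1, 649.5 and 1953 CPM in the cTEC libraries and 1.32, 3.09 and 3.76 CPM in the skin libraries (log2 fold change 8.65 ± 0.52, adjusted p = 1.33e-08). Cxcl12 was at 901, 865 and 1567 CPM in the cTEC libraries and 86.1, 38.6 and 112 CPM in the skin libraries (3.82 ± 0.42), and Ccl21a at 904, 1145 and 500.2 CPM in the cTEC libraries and 1.79, 5.13 and 1.03 CPM in the skin libraries (8.36 ± 0.76). All 3 had separate groups, but cTEC replicate 3 was the highest of its group for Ccl25 and Cxcl12 and the lowest for Ccl21a, a gene of medullary cells whose near copies share reads. The medullary marker total in cTEC replicate 3 was 0.576 times the mean of the other 2 cTEC libraries. Ccl21a is itself a large part of that total, which was 1727, 1689 and 983 CPM in the cTEC libraries. Of the 15 medullary markers, cTEC replicate 3 was the lowest cTEC library for 9 and the highest for 3, Aire among the latter. Ccl21a was at 9.29 without skin replicate 2.

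Of 21 chemokine system genes 11 were higher and 6 lower (median 2.31). The interferon-induced Cxcl10 was at 1586, 2830 and 669 CPM in the cTEC libraries and 49.4, 24.2 and 55.5 CPM in the skin libraries (log2 fold change 5.30 ± 0.59, adjusted p = 4.11e-06), and Cx3cl1 (2.82 ± 0.26), Ccl5 (7.17 ± 0.82) and Ccl22 (6.70 ± 0.86) were higher. Ackr4, a scavenger receptor of Ccl25 and Ccl21 that marks cTEC, was at 343 ± 60.9 CPM against 69.4 ± 33.8 CPM (2.31 ± 0.42), while the scavengers Ackr2 (-6.02 ± 0.67) and Ackr3 (-2.47 ± 0.33) were lower. Skin had its own set: Cxcl14 was at 6.24, 8.13 and 5.94 CPM in the cTEC libraries and 613, 604 and 640 CPM in the skin libraries (log2 fold change -6.51 ± 0.31, adjusted p = 1.73e-09), Ccl27a, which draws T cells to skin, was lower in cTEC by -3.73 ± 0.43, and Cxcl1 by -2.88 ± 0.48. Ccl5 is made by T cells, and its part from the thymocyte markers present was not tested. Ccl5 was at 6.44, Ccl22 at 5.98 and Cxcl1 at -2.23 without skin replicate 3. Ccl5 was at 11.82 without skin replicate 2 and Ccl22 was at 11.61 without skin replicate 2, where at most 3 reads were left in skin, so these sizes depend on the prior count.

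Surface molecules that touch T cells were mostly higher, 13 of 19, with 3 lower and a median of 2.92. Ly75, the endocytic receptor DEC-205 of cTEC, was at 270.2, 197 and 473 CPM in the cTEC libraries and 0.0941, 0.353 and 1.82 CPM in the skin libraries (log2 fold change 8.49 ± 0.54, adjusted p = 2.12e-08). Cd83, which protects MHC class II at the surface of cTEC, was at 123, 92.8 and 349.5 CPM in the cTEC libraries and 6.12, 2.03 and 3.58 CPM in the skin libraries (log2 fold change 5.60 ± 0.59, adjusted p = 2.38e-06). Cd274, the ligand PD-L1, was at 865, 1400 and 480.1 CPM in the cTEC libraries and 8.56, 10.8 and 11 CPM in the skin libraries (log2 fold change 6.49 ± 0.56, adjusted p = 4.03e-07). Its partner Pdcd1lg2 had no read in skin and was at least 191 times higher. Vcam1 (489 ± 63.7 CPM against 7.31 ± 0.602 CPM; 6.06 ± 0.49), Cd40 (5.86 ± 0.64), Lgals9 (3.06 ± 0.20), Tnfrsf14 (3.84 ± 0.33) and Icam1 (1.75 ± 0.26) were higher, and Icam2 (-3.21 ± 0.70), Cd276 (-1.08 ± 0.25) and Pvr (-1.56 ± 0.40) were lower. Ly75 was at 10.41 and Cd40 at 5.15 without skin replicate 3, and Cd40 was at 7.17 and Icam2 at -2.05 without skin replicate 1. Cd83 was at 4.83 without cTEC replicate 3.

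Antigen presentation differed by class. For MHC class I, 10 of 12 genes were higher (median 1.06), 8 without skin replicate 1 and 6 with the 6 libraries fitted alone: B2m was at 3385, 3962 and 2695 CPM in the cTEC libraries and 1203, 1345 and 783 CPM in the skin libraries (log2 fold change 1.59 ± 0.23, adjusted p = 3.94e-05), H2-K1 changed by 0.86 ± 0.23, Tap2 by 1.78 ± 0.14, Tapbp by 1.30 ± 0.17 and Erap1 by 1.50 ± 0.17. Nlrc5, the transactivator of class I genes, was the exception, at 61.4, 77.1 and 66.4 CPM in the cTEC libraries and 232, 184 and 116 CPM in the skin libraries (log2 fold change -1.38 ± 0.28, adjusted p = 0.000895). Class I genes share sequence, so reads of H2-K1 and its relatives can be split between them. For MHC class II all 10 genes were higher, with a median of 7.17. H2-Ab1 was at 3448, 4891 and 4218 CPM in the cTEC libraries and 20.2, 19.97 and 18 CPM in the skin libraries (log2 fold change 7.75 ± 0.36, adjusted p = 1.43e-09), and the invariant chain Cd74 at 7845, 10496 and 9638 CPM in the cTEC libraries and 79.5, 64.2 and 41.9 CPM in the skin libraries (7.24 ± 0.41). Ciita, which switches these genes on, was at 149, 109 and 184 CPM in the cTEC libraries and 0.0941, 0.53 and 0.425 CPM in the skin libraries. The class II list summed to 17362 to 22479 CPM in cTEC and 105 to 172 CPM in skin, beside B cell markers at 45.5 to 108 CPM in cTEC and 19.3 to 43.4 CPM in skin and the myeloid totals given above. Itgax, a dendritic cell gene, was at 1.28, 0.279 and 0.728 CPM in the 3 cTEC libraries. Of the 15 myeloid, dendritic and Langerhans cell markers tested, 4 were higher (26.7%, against 32.4% of all genes) and 2 lower (13.3%, against 23.9%). The largest increase was Flt3 (log2 fold change 8.03, and 7.07 without cTEC replicate 3). The part of such cells in the class II levels was not tested.

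All 28 interferon-stimulated genes were higher in cTEC, with a median of 4.36. Irf8, a transcription factor of this response, was at 194, 259.7 and 198 CPM in the cTEC libraries and 1.88, 1.24 and 1.64 CPM in the skin libraries (log2 fold change 7.09 ± 0.27, adjusted p = 3.16e-10). Oasl2 (5.43 ± 0.33), Irf7 (3.31 ± 0.29) and Ifi35 (2.48 ± 0.14) were among the others. The list total was 8572, 11113 and 5133 CPM in cTEC and 865, 595 and 509.5 CPM in skin, so cTEC replicate 3 was the lowest of its group and still above each skin library.

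**Figure D4:**
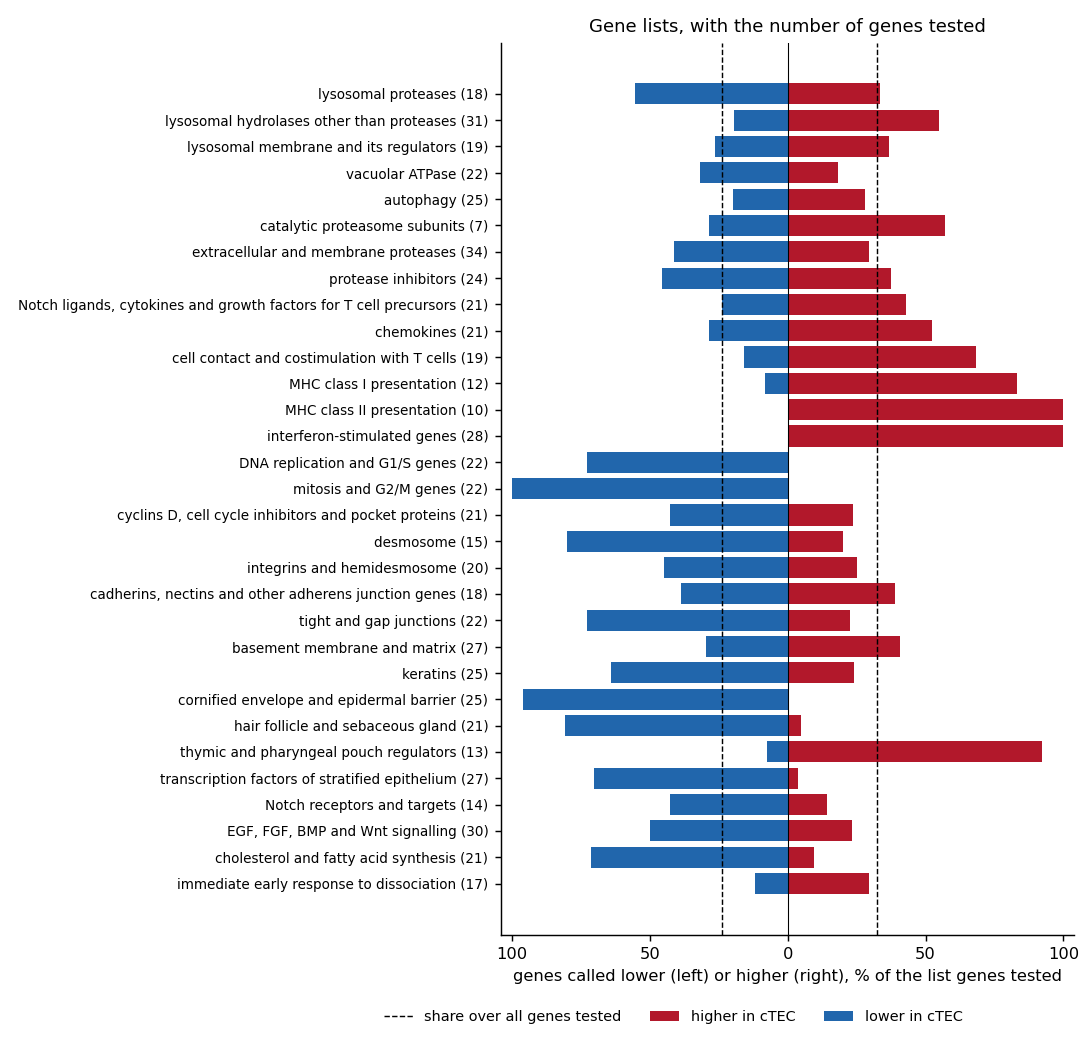
Percent of the genes tested in each list (vertical axis, with the number tested) called lower in cTEC (blue, to the left) or higher (red, to the right), with dashed lines at the shares over all genes, 23.9% and 32.4%. MHC class II and interferon-stimulated genes are all higher, mitosis genes all lower, and most lysosomal lists hold both.

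Cell cycle genes were lower in cTEC. All 22 mitosis and G2/M genes passed (median -3.14), and 16 of 22 replication and G1/S genes did (median -1.53), with none higher. Mki67, the common proliferation marker, was at 21.6, 8.69 and 14.6 CPM in the cTEC libraries and 79.1, 74.2 and 298 CPM in the skin libraries (log2 fold change -3.33 ± 0.50, adjusted p = 6.11e-05). Cenpa, the centromere histone, was at 3.57, 1.89 and 3.02 CPM in the cTEC libraries and 27.2, 45.2 and 75.8 CPM in the skin libraries (log2 fold change -4.12 ± 0.36, adjusted p = 4.29e-07), Kif23 changed by -3.80 ± 0.37, Ube2c by -3.52 ± 0.35, Cdk1 by -3.22 ± 0.46 and Top2a by -3.24 ± 0.55. Among replication genes E2f1 was at 1.57, 1.17 and 0.84 CPM in the cTEC libraries and 8.19, 11.7 and 26.7 CPM in the skin libraries (log2 fold change -3.69 ± 0.39, adjusted p = 2.32e-06), and Cdt1 (-1.71 ± 0.24), Tyms (-1.76 ± 0.25), Mcm2 (-1.58 ± 0.42) and Pcna (-0.97 ± 0.21) were lower. Mki67 was at -2.33, Cdk1 at -2.48, Top2a at -2.15, E2f1 at -3.02 and Mcm2 at -0.59 without skin replicate 3.

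Skin replicate 3 set much of the size of this difference. Mitosis genes summed to 143, 83.4 and 91.4 CPM in cTEC and 404, 639.8 and 1674 CPM in skin, and replication genes to 376, 343 and 269 CPM in cTEC and 414, 534 and 1259 CPM in skin. Without skin replicate 3, 21 of the 22 mitosis genes were still lower with a median of -2.18, but the replication list held 13 lower and 1 higher with a median of -0.73. Rrm2, Ccne1, Ccne2 and Bub1 lost their calls, and Ccne1 lost its call without cTEC replicate 3 too. Thymocyte markers were read in cTEC at the levels above, while the mitosis genes were low there.

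**Figure D5:**
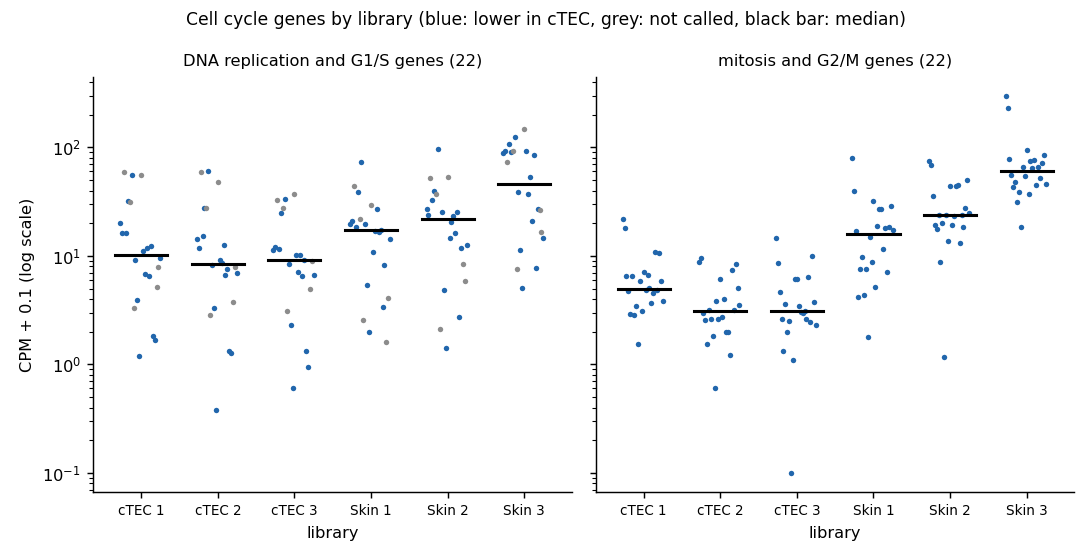
CPM + 0.1 (vertical axis, log scale) of the 22 replication and 22 mitosis genes in each of the 6 libraries (horizontal axis), 1 point per gene, with black bars at the medians. Mitosis genes are lowest in the cTEC libraries, and skin replicate 3 lies above the other skin libraries in both panels.

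Cyclins and inhibitors did not follow one direction, with 5 of 21 higher and 9 lower. Cdkn1a, the p21 inhibitor, was at 119.7, 159 and 76.8 CPM in the cTEC libraries and 1112, 1113 and 611 CPM in the skin libraries (log2 fold change -3.00 ± 0.29, adjusted p = 1.17e-06), so this inhibitor was lower in the same group as the mitosis genes. Ccnd2 (91.6 ± 19.7 CPM against 384 ± 69.99 CPM; -2.07 ± 0.21), Ccnd1 (-1.12 ± 0.22), Cdk6 (-2.63 ± 0.18) and Myc (-1.46 ± 0.38) were lower, as were Trp53 (-0.66 ± 0.13) and Cdkn2d (-1.02 ± 0.24). Cdkn2a, which encodes p16 and p19Arf, had no read in skin and was at least 50.7 times higher in cTEC, where it was at 5.28, 3.01 and 3.58 CPM. Cdkn1c (1.94 ± 0.35), Ccnd3 (0.79 ± 0.17), Gadd45a (0.84 ± 0.19) and the pocket protein gene Rbl2 (0.54 ± 0.14) were higher.

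Desmosomes gave the clearest decrease among the adhesion genes, with 12 of 15 lower and 3 higher (median -2.89). Dsg1a, the desmoglein of the upper epidermis, was at 10.8, 5.79 and 4.42 CPM in the cTEC libraries and 641, 599.9 and 493 CPM in the skin libraries (log2 fold change -6.36 ± 0.36, adjusted p = 7.97e-09). Evpl changed by -6.47 ± 0.35, Ppl by -3.47 ± 0.14, the shared junction protein Jup by -2.93 ± 0.21, Perp by -2.89 ± 0.28 and Dsp, the core plaque protein, by only -1.86 ± 0.18. The members of simple epithelia ran the other way: Dsc2 was at 142, 108 and 142 CPM in the cTEC libraries and 7.81, 6.01 and 7.64 CPM in the skin libraries (log2 fold change 4.19 ± 0.50, adjusted p = 8.63e-06), Pkp2 changed by 1.57 ± 0.41 and Dsg2 by 0.78 ± 0.28. The list summed to 2587 to 2932 CPM in cTEC and 12362 to 17934 CPM in skin. Pkp2 was at 2.57 without skin replicate 3. Dsg2 lost its call without cTEC replicate 1, skin replicate 1 or skin replicate 2 (adjusted p = 0.0592 to 0.10).

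Contacts to the basement membrane changed in part. Of 20 integrin and hemidesmosome genes 5 were higher and 9 lower. Col17a1, a collagen of the hemidesmosome, was at 63.8, 32.9 and 37.9 CPM in the cTEC libraries and 4687, 4701 and 2194 CPM in the skin libraries (log2 fold change -6.43 ± 0.67, adjusted p = 2.27e-06), and Itga6 was lower (-1.17 ± 0.28), whereas its partner Itgb4 overlapped between groups (log2 fold change -0.31 ± 0.33, adjusted p = 0.439). Itgb5 (5.72 ± 1.05 CPM against 129.9 ± 6.48 CPM; -4.50 ± 0.20), Itgb6 (-4.05 ± 0.31) and the collagen receptor Itga2 (-4.05 ± 0.51) were lower, and another collagen receptor, Itga1, was higher (36 ± 6.58 CPM against 1.72 ± 0.375 CPM; log2 fold change 4.37 ± 0.27, adjusted p = 1.68e-08). Itga8 (4.38 ± 0.67) and the leukocyte integrin Itgb2 (2.15 ± 0.55) were also higher, the latter beside Ptprc, the pan-leukocyte gene, at 13.7, 5.24 and 8.85 CPM in the cTEC libraries and 0, 0.53 and 1.76 CPM in the skin libraries. Itgb1 did not differ beyond its spread (log2 fold change 0.07 ± 0.14, adjusted p = 0.69). Itgb2 was at 2.75 without skin replicate 1. Itga8 was at 11.17 without skin replicate 3, where at most 3 reads were left in skin, so this size depends on the prior count.

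Cadherins and nectins were split evenly, with 7 of 18 higher, 7 lower and a median of 0.00. Cdh1, E-cadherin, was at 555, 533 and 479.8 CPM in the cTEC libraries and 1092, 1213 and 848 CPM in the skin libraries (log2 fold change -1.01 ± 0.17, adjusted p = 0.000154), and Cdh3, P-cadherin, did not pass the test (log2 fold change 0.18 ± 0.49, adjusted p = 0.772). Cdh13 (0.773 ± 0.688 CPM against 138 ± 61.4 CPM; -7.42 ± 0.67), Nectin4 (-4.46 ± 0.24) and Afdn (-1.73 ± 0.15) were lower. N-cadherin Cdh2 (16.5 ± 2.7 CPM against 0.46 ± 0.429 CPM; log2 fold change 5.05 ± 0.61, adjusted p = 8.92e-06), Cdh4 (1.99 ± 0.39), Cadm4 (3.57 ± 0.34) and Epcam, a surface antigen used to sort epithelial cells (0.80 ± 0.20), were higher. Cdh13 was at -8.22 without cTEC replicate 1, and Cdh2 was at 5.92 without skin replicate 3.

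Tight and gap junction genes were mostly lower, 16 of 22, with 5 higher (median -1.96). The epidermal connexin Gjb5 was at 0.19, 0.279 and 0 CPM in the cTEC libraries and 177, 268 and 108 CPM in the skin libraries (log2 fold change -10.13 ± 0.62, adjusted p = 1.64e-08), occludin Ocln changed by -3.85 ± 0.31, Marveld2 by -3.37 ± 0.24, Cldn1, needed for the skin's water barrier, by -2.50 ± 0.61 and Cldn4 by -3.22 ± 0.34. The claudins Cldn7 (21.4 ± 5.65 CPM against 1.34 ± 1.06 CPM; 4.11 ± 0.43) and Cldn3 (2.77 ± 0.30) were higher with Cgn (1.01 ± 0.12), Cldn6 (3.48 ± 0.81) and Cldn12 (0.82 ± 0.23). Gjb2 rested on skin replicate 3 alone, at 13.3, 10.8 and 748 CPM in skin. Without it Gjb2 turned to 0.60, not called, and Gjb6 also lost its call, as it did without cTEC replicate 2 or cTEC replicate 3. Gjb5 was at -10.73 without cTEC replicate 2, and Cldn7 was at 4.83 without skin replicate 1. Cldn6 was at 2.79 without skin replicate 3.

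Basement membrane and matrix genes went both ways, 11 of 27 higher and 8 lower (median 0.28). These shares, 40.7% and 29.6%, are not far from those over all genes, 32.4% and 23.9%. Tenascin C was the most abundant difference: Tnc was at 1772, 1488 and 1737 CPM in the cTEC libraries and 27.6, 14.7 and 112 CPM in the skin libraries (log2 fold change 5.01 ± 0.61, adjusted p = 9.91e-06). Npnt, a ligand of Itga8, was higher (1.74 ± 0.20), as were Agrn (0.95 ± 0.17) and Lama3 (0.86 ± 0.33). Lower were Lamb2 (-2.25 ± 0.25), Col4a6 (-2.54 ± 0.34), Nid1 (134, 51.5 and 307 CPM in skin; -4.77 ± 0.64) and Lama2 (36, 8.13 and 89.7 CPM in skin; -4.88 ± 0.68). Nid1 and Lama2 followed the fibroblast totals of the 3 skin libraries in order, and the part of fibroblasts was not tested. Tnc was at 6.33, Nid1 at -3.91 and Lama2 at -3.82 without skin replicate 3. Lama3 lost its call without cTEC replicate 1, cTEC replicate 3, skin replicate 2 or skin replicate 3 (adjusted p = 0.0501 to 0.0937).

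Keratins split between simple and stratified types. Of 25 keratins 6 were higher and 16 lower (median -3.54). Krt18, a keratin of simple epithelia, was at 2240, 2734 and 3011 CPM in the cTEC libraries and 3.95, 9.28 and 10.01 CPM in the skin libraries (log2 fold change 8.41 ± 0.35, adjusted p = 6.67e-10), Krt8, its partner, changed by 7.68 ± 0.41, Krt7 by 6.95 ± 0.23, Krt19 by 4.01 ± 0.51 and Krt20 by 3.09 ± 0.66. The basal keratins Krt5, at 1901, 2313 and 1173 CPM in the cTEC libraries and 12141, 15592 and 6638 CPM in the skin libraries (log2 fold change -2.67 ± 0.73, adjusted p = 0.00634), and Krt14 (-3.91 ± 1.06) were lower but still high in cTEC. Per length Krt5 averaged 1390 ± 318 TPM in cTEC and 6150 ± 1737 TPM in skin, and Krt18 3244 ± 694 TPM in cTEC and 6.85 ± 3.75 TPM in skin. Krt8 was at 8.29 and Krt19 at 5.07 without skin replicate 3.

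Other keratins separated layers and appendages of skin. Krt15, of basal and bulge cells, changed by -8.25 ± 0.94, Krt80 by -6.55 ± 0.39 and Krt79, of the sebaceous duct and infundibulum, by -8.03 ± 0.56. Krt17 overlapped between groups (log2 fold change -0.28 ± 0.55, adjusted p = 0.689). Krt71, of the inner root sheath, was at 0, 0.265 and 564 CPM in skin, so its call rested on skin replicate 3, without which it was 2.07 and not called. Krt6b, which also lost its call without cTEC replicate 2 or cTEC replicate 3, turned likewise to 1.77 and Krt75, not called with all libraries, to 3.89, while the whole list then had 6 higher and 13 lower with a median of -2.08. Krt79 was at -8.63 without cTEC replicate 1.

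Barrier genes were far lower in cTEC. Of 25 genes of the cornified envelope and barrier 24 were lower (median -5.28), and the list summed to 187 to 315 CPM in cTEC and 11827 to 18771 CPM in skin. Sbsn was at 11.8, 10.2 and 9.13 CPM in the cTEC libraries and 1039, 1242 and 1115 CPM in the skin libraries (log2 fold change -6.77 ± 0.25, adjusted p = 3.02e-10), and Scel (-7.71 ± 0.37), Krtdap (-6.92 ± 0.51), the envelope proteins Ivl (-6.22 ± 0.64) and Lor (-4.87 ± 0.53) and the crosslinking enzyme Tgm1 (-1.17 ± 0.39) were lower. Flg, filaggrin, did not pass (log2 fold change -1.30 ± 1.22, adjusted p = 0.384). Hair follicle and sebaceous genes were lower for 17 of 21, among them Elovl4 (-5.13 ± 0.42), Scd1 (-3.43 ± 0.33), Barx2 (-3.17 ± 0.32) and Cd34 (-4.40 ± 0.53). Cd34 also marks fibroblasts and vessels and was at 112, 47.9 and 262 CPM in skin, in the order of the fibroblast totals, a link that was not tested. Lhx2, at 0, 5.66 and 65.6 CPM, came mostly from skin replicate 3, and Sox9 was the 1 gene higher in cTEC (0.99 ± 0.34). Without skin replicate 3 Tcf7l1 (0.77) and Runx1 (1.65) were called higher too. Lor was at -4.07 and Cd34 at -3.55 without skin replicate 3. Tgm1 lost its call without cTEC replicate 1 or cTEC replicate 3 (adjusted p = 0.0552 to 0.0815). Sox9 lost its call without cTEC replicate 2 or skin replicate 1 (adjusted p = 0.088 to 0.0956).

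Transcription factors separated by origin. Of 13 regulators of the thymus and pharyngeal pouch 12 were higher (median 7.46). Isl1 was at 125, 145 and 107 CPM in the cTEC libraries and 0, 0.53 and 0.485 CPM in the skin libraries (log2 fold change 8.43 ± 0.45, adjusted p = 4.29e-09), Pax9 changed by 8.38 ± 0.75, Six4 by 7.19 ± 0.48, Eya1 by 6.44 ± 0.59, Meis1 by 3.47 ± 0.26 and Hoxa3 by 2.14 ± 0.54. Foxn1 differed far less, at 152, 171 and 253 CPM in the cTEC libraries and 20.2, 30.4 and 23.8 CPM in the skin libraries (log2 fold change 2.95 ± 0.32, adjusted p = 3.06e-06). Tbx1, a pharyngeal gene, was the exception and was lower (-4.05 ± 0.99), but it was at 1.13, 5.66 and 57.5 CPM in skin and lost its call without skin replicate 3 (-1.38, adjusted p = 0.0539). Pax9 was at 9.15 and Eya1 at 8.91 without skin replicate 3, and Hoxa3 was at 2.96 without skin replicate 1. Six4 was at 8.48 without skin replicate 3, where at most 3 reads were left in skin, so this size depends on the prior count.

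Of 27 factors of stratified epithelium 19 were lower and 1 higher (median -2.70), and without skin replicate 3 Msx1 (3.39) and Sox2 (5.59) were called higher too. Trp63 itself was at 404, 328 and 389 CPM in the cTEC libraries and 283, 327 and 278 CPM in the skin libraries, with groups that lay side by side without overlap (log2 fold change 0.34 ± 0.52, adjusted p = 0.604). Its standard error rests on the spread in all 15 libraries and not on these 6 alone, so the lack of a call does not show equal levels. Zfp750, which drives terminal differentiation, was at 24, 19 and 19.2 CPM in the cTEC libraries and 443, 462 and 525 CPM in the skin libraries (log2 fold change -4.52 ± 0.18, adjusted p = 6.11e-10). Grhl1 (-3.59 ± 0.16), Gata3 (-4.76 ± 0.22), Tfap2c (-6.38 ± 0.36), Tfap2a (-4.72 ± 0.55), the splicing factor Esrp2 (-2.70 ± 0.13) and Klf4 (-0.84 ± 0.29) were lower, and Elf3 was higher (1.49 ± 0.26). Dlx3, at 1.41, 6.63 and 266 CPM in skin, lost its call without skin replicate 3. Klf4 lost its call without cTEC replicate 1, cTEC replicate 3 or skin replicate 2 (adjusted p = 0.0683 to 0.106).

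Signalling genes between neighbours also differed. Of 14 Notch receptors and targets 2 were higher and 6 lower. Hey1, a Notch target, was at 63.8, 59.7 and 101 CPM in the cTEC libraries and 3.95, 3.45 and 3.28 CPM in the skin libraries (log2 fold change 4.40 ± 0.23, adjusted p = 4.29e-09) and Dtx1 changed by 5.22 ± 0.86, while Nrarp, another target, was lower (7.82 ± 1.84 CPM against 110.5 ± 9.09 CPM; log2 fold change -3.82 ± 0.31, adjusted p = 1.92e-07), with Notch1 (-1.55 ± 0.23), Lfng (-3.55 ± 0.39) and Maml1 (-0.76 ± 0.14). Hes1 did not differ beyond its spread (log2 fold change -0.06 ± 0.19, adjusted p = 0.829). Of 30 EGF, FGF, BMP and Wnt genes 7 were higher, 4 with the 6 libraries fitted alone, and 15 lower (median -1.34). The EGF receptor ligands Areg, at 2.24, 1.62 and 1.12 CPM in the cTEC libraries and 106, 138 and 81.7 CPM in the skin libraries (log2 fold change -6.02 ± 0.33, adjusted p = 6.16e-09), and Tgfa (-3.82 ± 0.18) were lower with the receptors Erbb3 (-4.27 ± 0.24) and Fgfr3 (-6.70 ± 0.40). Edar (46.4 ± 3.05 CPM against 3.14 ± 1.62 CPM; 3.86 ± 0.32), the Wnt inhibitor Sfrp1 (2.40 ± 0.19), Btc (3.53 ± 0.74) and Egfr itself (0.42 ± 0.15) were higher. Btc was at 2.82 without skin replicate 3. Dtx1 was at 9.98 without skin replicate 3 and Btc was at 8.20 without skin replicate 2, where at most 3 reads were left in skin, so these sizes depend on the prior count. Egfr lost its call without cTEC replicate 1, cTEC replicate 3, skin replicate 1 or skin replicate 2 (adjusted p = 0.0585 to 0.121).

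In the lipid synthesis list, 15 of 21 passed as lower in cTEC and 2 as higher, with a median of -1.16. Without skin replicate 3 there were 4 higher, with Fads1 (1.18) and Fads2 (5.29), and with the 6 libraries fitted alone 1, Scd2. Dhcr7, the last step to cholesterol, was at 9.14, 10.5 and 10.4 CPM in the cTEC libraries and 85.4, 105 and 69.95 CPM in the skin libraries (log2 fold change -3.12 ± 0.21, adjusted p = 4.01e-08), and Acaca, the first step of fatty acid synthesis (-1.35 ± 0.18), was lower, while the desaturase Scd2 (1.71 ± 0.39) and Srebf1 (0.67 ± 0.20) were higher. Immediate early genes, which respond within minutes to cell isolation, were high in all 6 libraries. Fos was at 5183, 7437 and 3169 CPM in the cTEC libraries and 3390, 4303 and 2503 CPM in the skin libraries, with adjusted p = 0.0781, and of the 17 genes 5 were higher and 2 lower, with 8 higher without cTEC replicate 3, Fos among them (0.92), and 3 with the 6 libraries fitted alone. Nr4a1 was the largest difference (231 ± 53.6 CPM against 2946 ± 1276 CPM; log2 fold change -3.67 ± 0.37, adjusted p = 1.48e-06), ahead of Klf2 (1.79 ± 0.38), Hspa1a (1.77 ± 0.50), Dusp1 (-1.13 ± 0.28) and Jun (1.06 ± 0.25). Scd2 was at 2.63 and Hspa1a at 2.37 without skin replicate 3.

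Several of the differences above also set cTEC apart from medullary thymic epithelial cells (mTEC), which were also sorted by flow cytometry and prepared with the same kit. The skin and mTEC comparisons share the cTEC libraries. Prss16 averaged 132 ± 21.1 CPM in mTEC, and cTEC minus mTEC was 4.31 ± 0.52, adjusted p = 0.00010. Psmb11 averaged 19.2 ± 7.98 CPM there (4.11 ± 0.43, adjusted p = 3.19e-05), Ctsl 1802 ± 285 CPM (1.28 ± 0.20, adjusted p = 0.000593), and Cxcl12 137 ± 23.6 CPM (3.02 ± 0.41, adjusted p = 0.000215). Other genes did not pass between the 2 thymic epithelia: Il7 averaged 135 ± 27.1 CPM in mTEC (0.09 ± 0.24, adjusted p = 0.833) and Cd74 8856 ± 763 CPM (0.07 ± 0.32, adjusted p = 0.892). Ctss ran against its direction over skin, at 75.3 ± 18.9 CPM in mTEC (-2.12 ± 0.37, adjusted p = 0.00131).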

How the data were processed

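RNA of sorted epithelial cells was sequenced in 15 libraries of 5 groups, of which the 3 cTEC and 3 skin libraries are compared here. Per the submitters' processing notes, bcl2fastq 2.20, STAR 2.5.1b, RSEM 1.2.28 and GRCm38 were used (no gene annotation release is named there). The authors deposited read counts per gene for each strand setting, and RSEM expected counts and TPM. The counts of the sense strand were used, as the opposite-strand counts were far lower; expected counts, rounded, entered 1 alternative fit, and the deposited TPM served to compare genes with each other. Reads not counted to a gene, 28.6% to 46.9% of the 6 libraries, stayed out. They include reads mapped to several places (8.61% to 13.27%) and reads in no gene of the sense strand (10.96% to 20.74%).

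Genes were filtered with filterByExpr, scaled by TMM and fitted with edgeR 4.0.16 (R 4.3.3), quasi-likelihood F test, all 15 libraries in 1 model of 5 groups with 10 residual degrees of freedom, and cTEC minus skin tested with Benjamini-Hochberg adjustment over 19107 genes at 0.05. Log2 fold changes carry the default prior count of edgeR's fit. A prior count of 2 went into the log2 CPM behind the correlations. The standard error is the log2 fold change over the square root of F. The common biological coefficient of variation was 28.1%. CPM are sense counts over TMM-scaled library size, with means ± SD over 3 libraries. Against a group with no read, the bound uses a floor of 3 reads over the group; with 1 to 3 reads, the ratio of summed reads has an exact conditional 95% interval, covering counting error only. Tables used Python 3.11.15, pandas 2.3.3 and matplotlib 3.10.9, and the model was tested on simulated data. Alternatives were limma 3.58.1 (voom with quality weights), DESeq2 1.42.0, other filters and strand settings, and a 2-fold threshold. Others were the 6 libraries alone, the 9 of the same kit, a replicate block and each library left out.

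Lists came from textbook knowledge, and the members and lists were chosen with earlier results of these data known. Of 756 genes listed, 755 were found and 7 had too few reads to test (among them Cpa3, Tyr, Tyrp1, Ms4a1, Hes5 and Siglech). Named genes are the 12 largest differences in each direction among called genes with a mean of 10 CPM or more in the higher group, 10 reads in the lower group and no overlap; marked key members of each list; up to 3 further members per direction by p; and all members where 5 or fewer passed. A few others, such as Jag1, Krt17, Hoxa4, Psmb6 or genes that rest on 1 library, were named after their values were seen. Values of a few single genes are not reported here.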

Additional observations from a re-analysis of the deposited data

How the results depend on the processing

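Of 588 called genes in the lists, 389 kept direction and call under every one of the 20 alternatives that tested them, and 10 genes had a reversed value. Calls of all genes numbered 5636 past a 2-fold change (3621 higher, 2015 lower), with adhesion 17 higher, cell cycle 2 higher, and lysosome and protease lists 27 higher and 28 lower. The 6 libraries alone gave 7197 calls (3819 higher) among 15609 genes tested. The 9 libraries of the same kit (cTEC, skin and mTEC) gave 8955 among 17698. Replicates correlated at r = 0.92 to 0.947 in skin and 0.99 to 0.991 in colon, across log2 CPM. Same-numbered cTEC and skin libraries did not deviate together (r = -0.03, 0.034 and 0.01). Whether the numbers pair them stays unknown, as the labels do not say. The deviations also carry the differences in marker totals given above, so they cannot decide it. With a replicate block and 6 libraries there were 5795 calls (2986 higher, 2809 lower, and 31 cell cycle genes lower). Leaving out 1 library gave 9817 to 11255 calls and, with the pair of doubted libraries also tried, 4 to 8 cell cycle genes higher; of 322 named genes called, 58 moved over 1.5 times without skin replicate 3 and 7 to 18 without any other. DESeq2 gave 11337, voom with quality weights 9493, and leaving out both cTEC replicate 3 and skin replicate 1 9919. Over the fits with libraries left out, Fads1 ran from -1.84 to 1.18, Fads2 from -0.66 to 5.29, Gjb2 from -4.54 to 0.60, Krt6b from -5.77 to 1.77, Krt71 from -8.91 to 2.07, Krt75 from -4.12 to 3.89, Lef1 from -2.16 to 3.88 and Mmp13 from -4.35 to 6.14, each turning positive without skin replicate 3. Also reversed were, under quality weights, Fads2 4.58, Krt6b 0.83, Krt71 0.40 and Lef1 3.30, and with unstranded counts Ctsa 0.22 and Mlana 0.12. Skin replicate 3 was the one high library for those of the first set, and the cause of the others was not tested. Low genes such as Mlana are limited by depth.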

Other observations

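The 4 Hox clusters, which record position along the body axis, were looked at after the lists above, so they give a description only. In the Hoxa cluster on chromosome 6, Hoxa2 and Hoxa3 near the 3′ end were higher in cTEC, and Hoxa5 and Hoxa7 further along were lower. Not every member further along was lower, and the median over the cluster was 0.00. Hoxa2 was at 10.7, 11.3 and 10.6 CPM in the cTEC libraries and 4.05, 0.795 and 0.303 CPM in the skin libraries (log2 fold change 2.70 ± 0.63, adjusted p = 0.00206), and Hoxa3 is given above. Hoxa4 did not pass (log2 fold change 0.81 ± 0.34, adjusted p = 0.0552). Hoxa5 was lower (0.671 ± 0.258 CPM against 9.78 ± 4.83 CPM; -3.84 ± 0.45), and Hoxa7 was at 1.57, 2.28 and 1.4 CPM in the cTEC libraries and 105, 70.3 and 39.5 CPM in the skin libraries (log2 fold change -5.35 ± 0.37, adjusted p = 4.35e-08). Of 11 Hoxa genes tested 3 were higher and 5 lower, of 9 Hoxb genes 1 and 7, of 8 Hoxc genes 1 and 5, and of 6 Hoxd genes 0 and 3. Outside Hoxa, Hoxc11 (7.84 ± 4.1 CPM against 0.23 ± 0.214 CPM; 4.95 ± 0.89) and Hoxb13, at least 3.37 times higher with skin at a floor of 3 reads, were the 2 higher in cTEC. Hoxc13 was at 0, 1.59 and 57.9 CPM in skin, nearly all from replicate 3. Skin fibroblasts also express Hox genes, and their part was not tested.

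Gene clusters of the barrier and of antigen presentation were not uniform. In the epidermal differentiation complex on chromosome 3, 22 of 51 genes tested were lower and 7 higher (median -1.32), and the higher ones included the calcium-binding S100a1 (169.7 ± 24.1 CPM against 21.6 ± 6.86 CPM; 2.97 ± 0.20) and the filaggrin-type gene Rptn (23 ± 9.03 CPM against 1.64 ± 1.67 CPM; 3.72 ± 0.80). In the MHC region on chromosome 17, 68 of 137 genes were higher and 26 lower (median 0.97). H2-DMb2, a chaperone chain of class II loading, was at 267, 297 and 330.1 CPM in the cTEC libraries and 1.32, 1.59 and 0.303 CPM in the skin libraries (log2 fold change 8.21 ± 0.46, adjusted p = 7.50e-09), and Ubd, a ubiquitin-like modifier induced by interferon, at 244, 153 and 309 CPM in the cTEC libraries and 0.188, 4.33 and 0.243 CPM in the skin libraries (log2 fold change 7.28 ± 0.81, adjusted p = 3.93e-06). Ly6g6c, in the same region, ran the other way at 2.32 ± 1.67 CPM against 875 ± 254 CPM (-8.54 ± 0.66), as did Tnxb, at 410.3, 239 and 372 CPM in skin (-7.98 ± 0.60). Over all protein-coding genes 32.9% were higher and 26% lower.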
